A study of Homo sapiens with 6 samples.

Results

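The clustered protocadherins are cell adhesion genes that lie side by side in 3 tandem arrays, named alpha, beta and gamma, on the long arm of chromosome 5. Their rows of the count table were chosen by gene name alone, with no measured value: PCDHA or PCDHB followed by a number, PCDHAC1 and PCDHAC2, PCDHGA or PCDHGB followed by a number, and PCDHGC3 to PCDHGC5. The rule took 56 of the 57341 named genes of the table, with 16 in the alpha cluster, 18 in the beta cluster and 22 in the gamma cluster. All lay on the plus strand of chr5:140786136-141512981 (hg38).

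RNA was sequenced from 3 libraries labelled H295R and 3 libraries labelled H295R-PM-Ptc+. H295R is an established human adrenocortical carcinoma line, and its parental cells formed the control group. H295R-PM-Ptc+ cells were a subpopulation of the same line, obtained by flow cytometry sorting for the Hedgehog receptor Ptch1 on the cell surface, with amplification in culture afterwards. Both groups were grown in the same medium and received no treatment. Each group therefore stood for 1 population of 1 line, and the sources used here do not say whether the 3 replicates came from separate cultures, so that the p-values measure the spread between these libraries, which may be technical. Total counts on genes ranged from 23264403 to 25813247 per library.

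PTCH1, the gene of the receptor used for the sort, went against the labels. It had 441, 559 and 579 counts in H295R and 248, 326 and 319 counts in H295R-PM-Ptc+, as labelled. On the scale of counts per 1000000 of the TMM-scaled library size (CPM), this was 21.3 ± 2.56 against 12.2 ± 2.19 (SD, n = 3), a log2 fold change of -0.81 (SE 0.15, adjusted p = 0.0207 by edgeR's quasi-likelihood test with Benjamini-Hochberg adjustment over all genes tested). The group names of the deposited columns were also exchanged relative to the names of the normalised values published with the study. With the published names PTCH1 is higher in H295R-PM-Ptc+, and the paper reports more Ptch1 protein in these cells by Western blot. The counts alone cannot tell which naming is right. Below, the words higher and lower describe H295R-PM-Ptc+ as labelled against H295R as labelled, and every direction turns if the names are exchanged.

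Clustered protocadherins are single-pass membrane proteins whose outer cadherin repeats bind the same isoform on a neighbouring cell. In the alpha and gamma clusters, each gene has its own large first exon with its own promoter, which is spliced to constant exons that all genes of the cluster share, whereas the genes of the beta cluster are mostly intronless. Single neurons switch on different sets of these promoters, a choice that depends on CTCF, cohesin and DNA methylation, and the resulting isoform sets serve as surface labels by which a neuron recognises its own branches. The C-type genes at the ends of the alpha and gamma clusters are used by most neurons rather than chosen by chance. Adrenocortical cells are not a tissue for which these genes are chiefly known.

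The promoters of the clusters share a short element, the CGCT box, and the sequences around it are shown because few genes were called between the groups, and each gene of the clusters has its own promoter. RefSeq promoter windows (GRCh38.p14, 250 bases before to 50 bases after the start) were found for 47 of the 56 members, all but PCDHA3, PCDHA13, PCDHA14, PCDHB6, PCDHB11, PCDHB17, PCDHB18, PCDHGA12 and PCDHGC5. The letters CGCT occurred on either strand in 46 of these 47 windows and in 71.9% of the windows of all 27305 genes, so that the 4 letters alone do not set the members apart. Below, 52 bases around the box are printed on the plus strand, with the box in capitals, for the 2 alpha genes and the 3 gamma genes that were higher in at least 1 fit and for highly counted genes of each cluster. Those of the alpha cluster come from chr5:140827889-140827940, chr5:140786078-140786129, chr5:140868875-140868926 and chr5:140875236-140875287, in the order printed.
PCDHA6: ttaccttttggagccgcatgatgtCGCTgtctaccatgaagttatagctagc
PCDHA1: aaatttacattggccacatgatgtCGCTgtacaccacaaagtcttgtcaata
PCDHA11: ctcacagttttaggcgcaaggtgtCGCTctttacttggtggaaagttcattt
PCDHA12: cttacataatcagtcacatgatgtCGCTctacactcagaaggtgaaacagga
The beta genes shown come from chr5:141094536-141094587 and chr5:141223255-141223306.
PCDHB2: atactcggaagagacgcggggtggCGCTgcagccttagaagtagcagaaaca
PCDHB14: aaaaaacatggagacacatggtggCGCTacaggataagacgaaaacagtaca
The gamma genes shown come from chr5:141397855-141397906, chr5:141402706-141402757, chr5:141338695-141338746 and chr5:141475872-141475923.
PCDHGB5: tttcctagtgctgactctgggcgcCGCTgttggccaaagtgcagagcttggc
PCDHGA9: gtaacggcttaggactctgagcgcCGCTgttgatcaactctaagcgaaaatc
PCDHGA2: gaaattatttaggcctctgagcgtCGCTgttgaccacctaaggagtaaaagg
PCDHGC3: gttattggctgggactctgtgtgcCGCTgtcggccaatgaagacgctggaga

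Each cluster had its own letters around the box. In the alpha cluster, the commonest word of 11 bases that holds the box was ATGATGTCGCT. It stood in the windows of 8 of 13 alpha genes and of no other gene, so that 0.0293% of all genes held it. The commonest such word of 10 bases in the beta cluster, GGTGGCGCTG, stood in 12 of 14 beta windows and in 0.341% of all genes, and the commonest of 9 bases in the gamma cluster, GCGCCGCTG, in 10 of 20 gamma windows and in 1.59% of all genes. The lengths of these words were picked after the sequences had been read, and both strands were searched. PCDHA6 and PCDHA1 held the alpha word, and so did PCDHA12, whose groups overlapped, whereas PCDHA11 did not. PCDHGB5 and PCDHGA9 held the gamma word, and PCDHGA2 and PCDHGC3 did not. The 3 commonest words of 8 bases among the members were AGCGCCAC, CAGCGCCA and GCGCCACC, each in 13 members and in 1.38%, 2.32% and 2.74% of all genes, and all of them overlap the beta word on the other strand. The box, taken as the first GTCGCT or GCCGCT of an alpha or gamma window or GGCGCT of a beta window, lay at a median of 55 bases before the start in 11 alpha genes, 61 bases in 13 beta genes and 62 bases in 19 gamma genes. On both strands these 6-base words occurred in 9.61%, 26.2% and 24.8% of all genes.

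The whole promoter window of PCDHA6 (chr5:140827710-140828009, plus strand, GRCh38.p14) is printed because PCDHA6 was the member that passed the test between the groups. The box in capitals lay 47 bases before the start.
PCDHA6: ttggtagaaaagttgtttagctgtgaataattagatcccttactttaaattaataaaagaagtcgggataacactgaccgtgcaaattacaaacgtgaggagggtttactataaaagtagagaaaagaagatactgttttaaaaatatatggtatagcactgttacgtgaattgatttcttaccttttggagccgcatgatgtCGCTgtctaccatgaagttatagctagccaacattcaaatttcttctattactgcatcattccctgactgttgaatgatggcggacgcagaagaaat

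Counts of the members came mainly from their own exons. The authors counted fragments per gene name with featureCounts, which by default leaves out a fragment that falls on exons of several genes, and the constant exons belong to every gene of their cluster. The exonic bases held by a single gene had a median of 3313.5 in the alpha cluster, 3229 in the beta cluster and 2801 in the gamma cluster. PCDHA14 had no base of its own and 0 counts in every library. Levels are compared between genes below as CPM per kilobase of own exon (CPM per kb).

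RNA of all 3 clusters was present in the adrenocortical cells, but at low levels. The beta cluster held 62.0% of the members' counts in H295R and 59.2% in H295R-PM-Ptc+, against 16.6% and 17.1% for alpha and 21.4% and 23.7% for gamma. Over all 6 libraries, the median level of a gene was 1.79 CPM per kb in the beta cluster, 0.270 in the alpha cluster and 0.200 in the gamma cluster. Of the 56 members, 35 had at least 10 counts in every library, 8 of them alpha, 17 beta and 10 gamma genes. PCDHB1 was the beta gene that missed this mark, with 4 to 14 counts per library.

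The member with the highest level per own exon was PCDHGC3, a C-type gene at the end of the gamma cluster whose protein is known to bind the Wnt pathway scaffold Axin1. It had 20.5, 17.3 and 21.6 CPM in H295R and 16.4, 20.4 and 21.0 CPM in H295R-PM-Ptc+, a level of 6.0 CPM per kb with a range of 5.04 to 6.63. Its range lay above that of every other member, the next being PCDHB5 with 3.49 to 4.79 CPM per kb. This order rested on the length used: per kb of all its exons, the shared ones included, PCDHGC3 had 3.59 CPM and came after PCDHB14, PCDHB8 and PCDHB2 with 4.15, 3.93 and 3.61 CPM. PCDHGC3 alone took 50.2% ± 5.78 (SD, n = 3) of the counts of the gamma cluster in H295R and 42.4% ± 0.262 in H295R-PM-Ptc+. The other C-type genes of that cluster had few counts, with 0 to 5 counts per library for PCDHGC4, known for its part in the survival of neurons, and 0 to 4 for PCDHGC5.

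After PCDHGC3 the order was led by beta genes. PCDHB5 had 9.21, 8.31 and 10.1 CPM in H295R and 9.82, 10.7 and 11.4 CPM in H295R-PM-Ptc+, or 4.16 CPM per kb over all libraries. PCDHB14 (4.15 CPM per kb, range 3.50 to 4.66), PCDHB8 (3.93, range 3.42 to 4.5), PCDHB2 (3.61, range 3.21 to 3.96) and PCDHB10 (3.01, range 2.74 to 3.26) followed. Neighbours in this order overlapped in range and cannot be ranked against each other. The lowest beta gene, PCDHB1, had 0.143 CPM per kb. PCDHB17 and PCDHB18, which are pseudogenes in humans, had 1.96 and 1.15 CPM per kb and so lay inside the range of the coding genes.

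In the alpha cluster, PCDHA11 and PCDHA12, both near its end, had the highest levels. PCDHA11 had 9.33, 9.53 and 11.3 CPM in H295R and 8.02, 10.1 and 11.7 CPM in H295R-PM-Ptc+, and with 2.98 CPM per kb (range 2.39 to 3.48) it lay above PCDHA12 at 1.48 CPM per kb (range 1.07 to 1.77). PCDHA11 took 32.9% ± 1.70 of the alpha counts in H295R and 30.1% ± 1.71 in H295R-PM-Ptc+. The C-type genes PCDHAC1 and PCDHAC2, the latter known for the spacing of serotonergic axons, followed with 1.16 CPM per kb (range 0.873 to 1.47) and 0.732 CPM per kb (range 0.539 to 0.901), and each of these genes overlapped in range with the one before it, down from PCDHA12. Next came PCDHA1 with 0.687 CPM per kb (range 0.245 to 1.19), whose range overlapped that of PCDHAC2. PCDHA13, the gene between PCDHA12 and PCDHAC1, had 0.153 CPM per kb, so that neighbours on the chromosome could differ widely in level.

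Among the gamma genes other than PCDHGC3, PCDHGB5 stood out. It had 2.56 CPM per kb (range 1.68 to 3.74), above PCDHGA1 at 0.780 CPM per kb (range 0.576 to 0.967), PCDHGB2 at 0.753 (range 0.582 to 0.964) and PCDHGA4 at 0.453 (range 0.247 to 0.598). PCDHGA1 and PCDHGB2 overlapped in range. The genes on either side of PCDHGB5 were low, PCDHGA8 with 1 to 5 counts per library and PCDHGA9 with 0.313 CPM per kb.

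**Figure D1:**
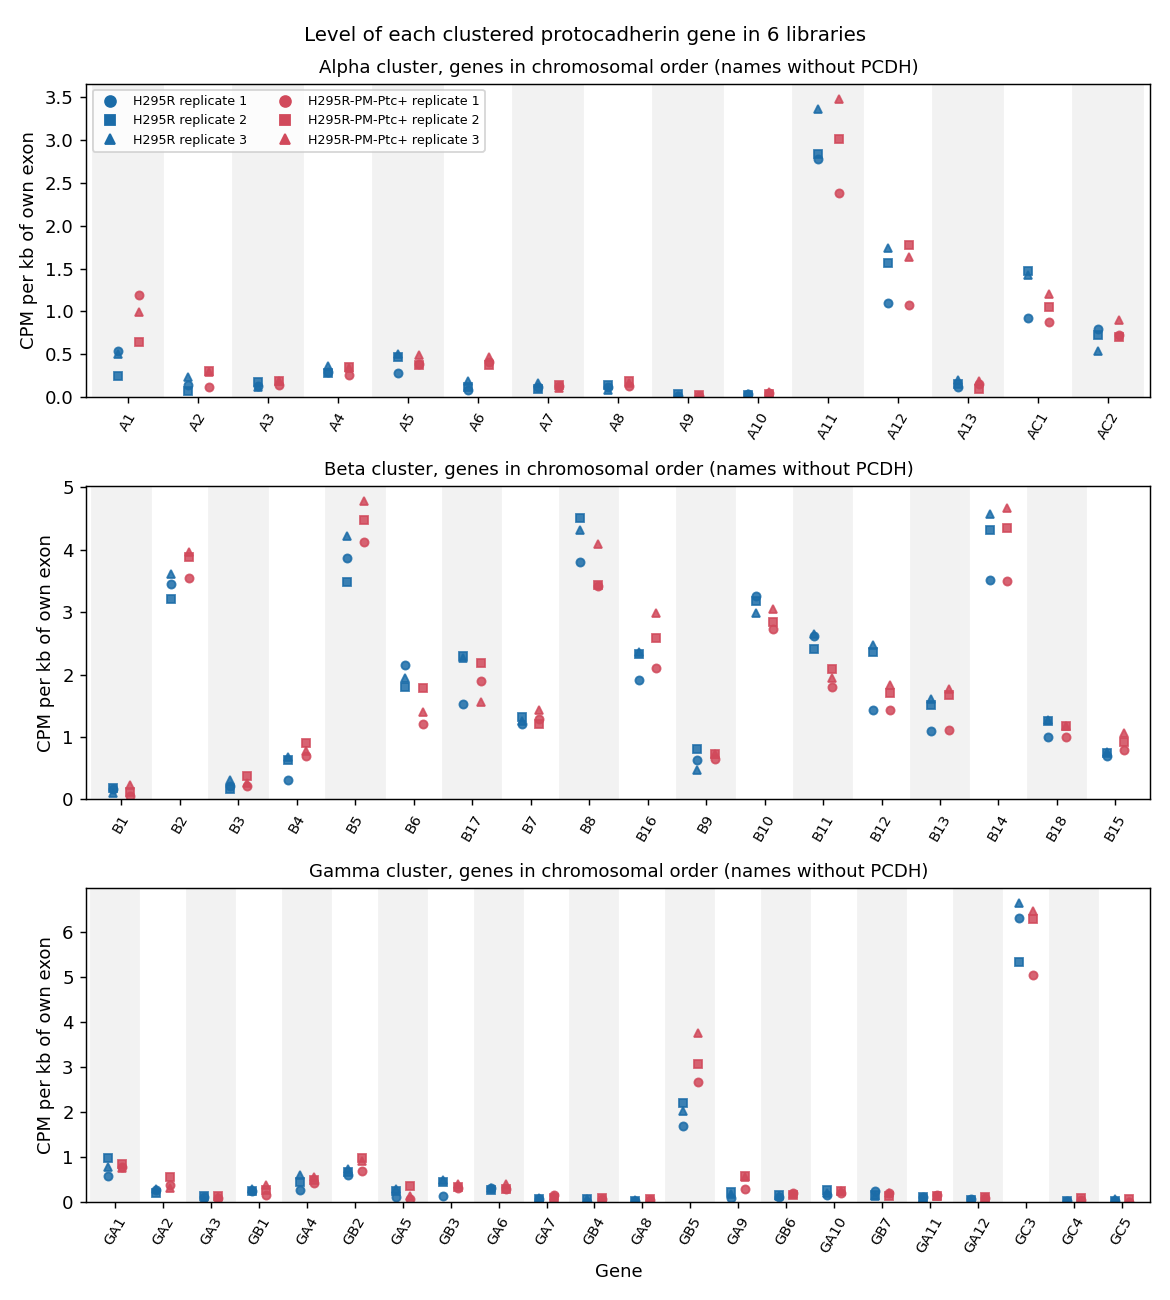
Level of each member with exonic bases of its own (horizontal axis, chromosomal order, names without PCDH) in CPM per kb of own exon (vertical axis), 1 panel per cluster, with 1 point per library, coloured by label and shaped by replicate. PCDHGC3 lies highest at 6.0 CPM per kb, PCDHA11 leads the alpha cluster at 2.98, and most genes have overlapping groups.

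**Figure D2:**
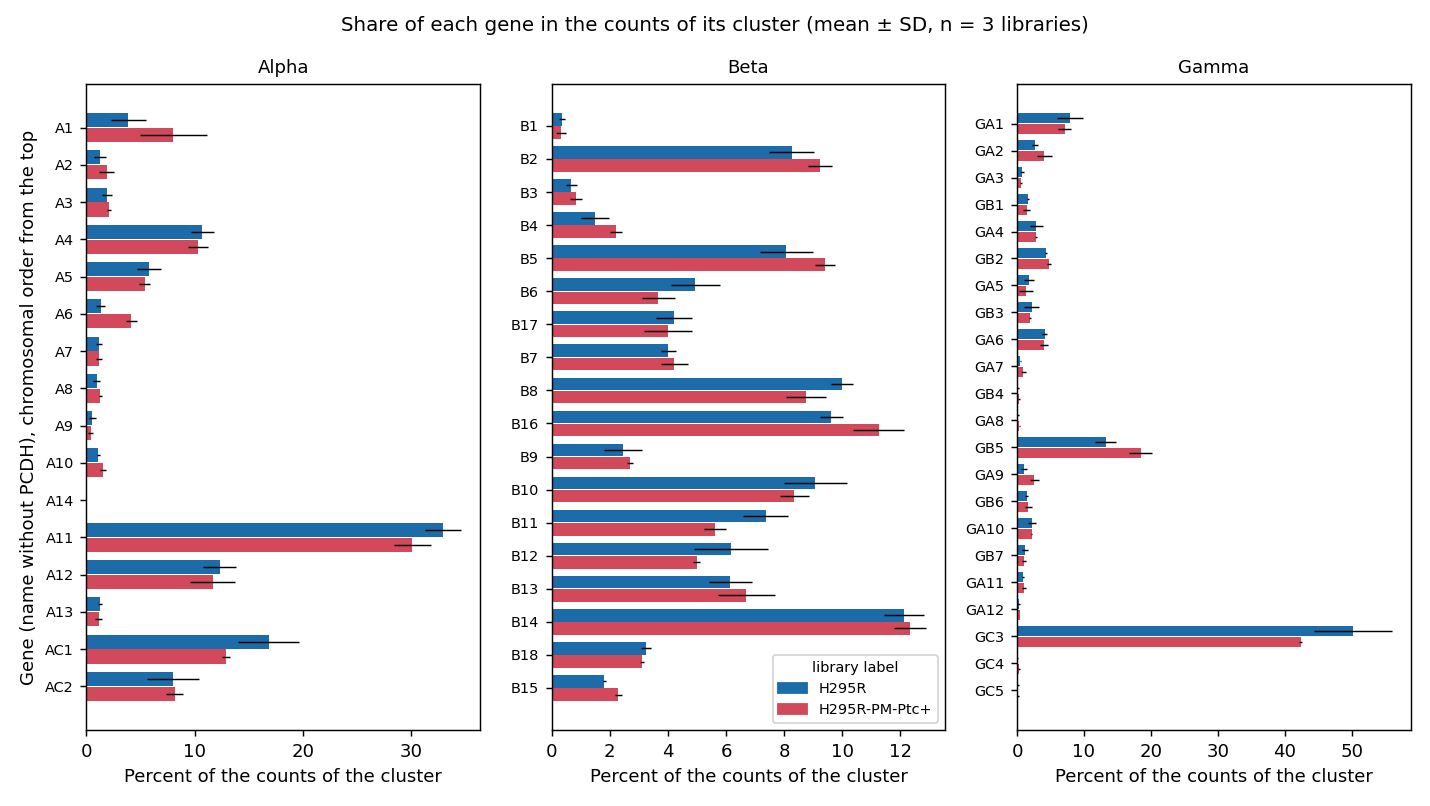
Share of each member in the counts of its cluster (horizontal axis, percent) by label, with bars for the mean and lines for the SD of 3 libraries and genes in chromosomal order from the top. PCDHGC3 takes 50.2% and 42.4% of the gamma counts in the groups labelled H295R and H295R-PM-Ptc+, while no beta gene takes more than 12.3% of the beta counts.

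The summed level of each cluster overlapped between the groups. The alpha sum was 27.0, 30.6 and 34.1 CPM in H295R and 28.5, 33.0 and 37.3 CPM in H295R-PM-Ptc+ for replicates 1, 2 and 3, a log2 ratio of the means of 0.11. The beta sum was 104, 117 and 121 CPM against 100, 117 and 122 CPM, a log2 ratio of -0.012. For gamma it was 36.6, 38.9 and 43.0 CPM against 38.9, 48.2 and 49.2 CPM, a log2 ratio of 0.20. Within replicates 1, 2 and 3, the log2 ratio was 0.077, 0.11 and 0.13 for alpha and 0.088, 0.31 and 0.19 for gamma, above 0 in each, and -0.053, -0.0018 and 0.014 for beta. Replicate 1 had the lowest sum in both groups and in all 3 clusters. Within gamma, the sum without PCDHGC3 was 16.1, 21.6 and 21.5 CPM against 22.5, 27.8 and 28.3 CPM and did not overlap, a log2 ratio of 0.41, and that of the 7 gamma B genes, 8.04, 10.5 and 10.3 CPM against 11.5, 13.4 and 15.6 CPM, did not overlap either. PCDHGB5 alone made up most of the gamma B difference, with means of 5.24 and 8.41 CPM within gamma B means of 9.61 and 13.5 CPM. The sum of the 12 gamma A genes, 7.99, 11.06 and 11.003 CPM against 10.9, 14.1 and 12.7 CPM, overlapped. The 5 C-type genes together gave 27.1, 25.9 and 29.4 CPM against 22.6, 27.4 and 29.1 CPM. No test was made of these sums, whose genes were chosen with earlier results of these data known. Among all single genes tested, the groups did not overlap for 23.5%. Here and below, a difference in bulk RNA can come from the number of cells that use a gene or from RNA per cell, which cannot be told apart.

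The comparison between the groups asked which members differed between parental cells and the sorted subpopulation. Of the 56 members, 44 passed edgeR's filter on low counts (11 alpha, 18 beta and 15 gamma genes) and were tested with all 16710 genes that passed. PCDHA6 rose and no member fell at an adjusted p under 0.05, beside 3.73% of all genes tested that passed in either direction (2.42% higher and 1.32% lower). At an unadjusted p under 0.05 there were 5 members higher and 2 lower, or 15.9% of the 44, beside 17.3% of all genes. The groups did not overlap for 8 members that were higher and 2 that were lower, or 22.7%, beside 23.5% of all genes. These were PCDHA1, PCDHA6, PCDHB4, PCDHB15, PCDHGA2, PCDHGB5, PCDHGA9 and PCDHGA11 as higher and PCDHB6 and PCDHB11 as lower. The shares of members were thus near those of all genes. The median log2 fold change was 0.08 over the 44 members and 0.00094 over all genes, and 37 of the 44 (84.1%) had a log2 fold change between -0.5 and 0.5, against 90.0% of all genes.

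Libraries with the same replicate number deviated together from their group means, so the replicate number was also fitted as a block. With this replicate block, 5 members passed as higher (PCDHA1, PCDHA6, PCDHGA2, PCDHGB5 and PCDHGA9) and 2 as lower (PCDHB6 and PCDHB11), beside 22.5% of all genes tested (12.1% higher and 10.4% lower). PCDHB4, PCDHB15 and PCDHGA11, whose groups did not overlap, were not called with the block. In that fit PCDHB4 and PCDHB15 had log2 fold changes of 0.57 and 0.33 (adjusted p = 0.0580 and 0.186 by edgeR).

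**Figure D3:**
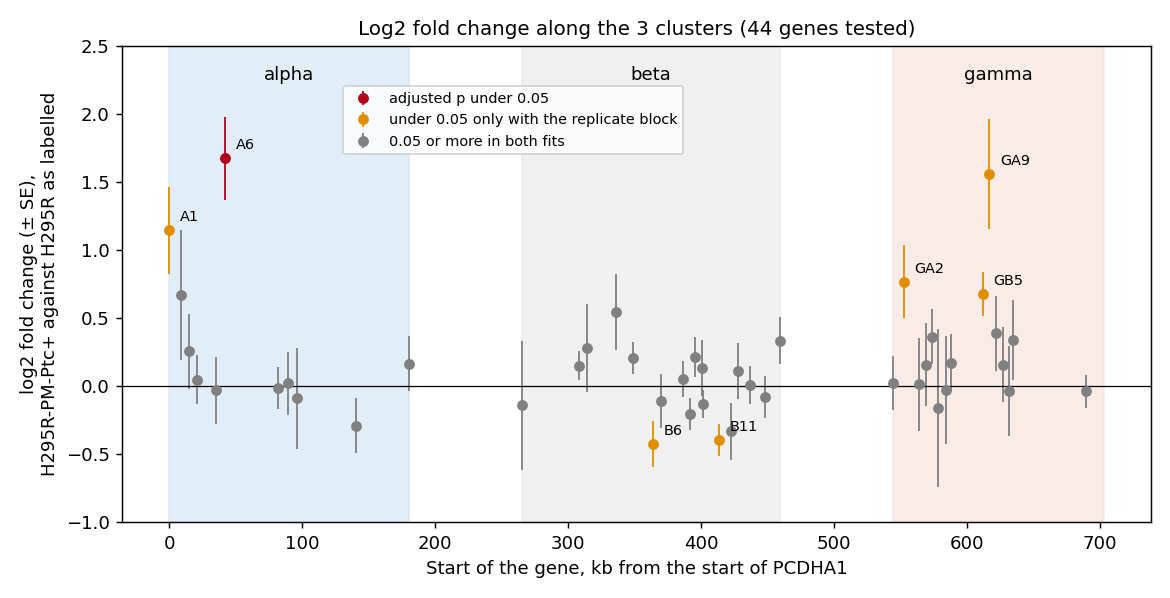
Log2 fold change of the 44 tested members (vertical axis, H295R-PM-Ptc+ against H295R as labelled, error bars ± SE of the edgeR fit) by the distance of the gene's start from that of PCDHA1 in kb (horizontal axis), with the 3 clusters shaded. PCDHA6 at 1.67 passed in both fits, PCDHA1, PCDHGA2, PCDHGB5, PCDHGA9, PCDHB6 and PCDHB11 passed with the block and not without it, and most genes lie near 0.

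PCDHA6 (chr5:140827958-141012344) rose 3.19-fold. It had 0.251, 0.394 and 0.607 CPM in H295R, from 6, 10 and 15 counts, and 1.33, 1.21 and 1.51 CPM in H295R-PM-Ptc+, from 34, 30 and 35 counts. All libraries labelled H295R-PM-Ptc+ lay above all labelled H295R. The log2 fold change was 1.67 (SE 0.31, adjusted p = 0.0207, edgeR's quasi-likelihood test), and the log2 ratio within replicates was 2.41, 1.62 and 1.32. PCDHA6 made up 1.33% ± 0.425 of the alpha counts in H295R and 4.13% ± 0.510 in H295R-PM-Ptc+ (SD, n = 3). With 1 library left out the adjusted p was 0.0875 without H295R replicate 2 and 0.0508, 0.0593 and 0.0873 without H295R-PM-Ptc+ replicates 1, 2 and 3, at log2 fold changes of 1.58 to 1.75, so that the call was lost while the size of the difference changed little. Without replicate 1 in both groups it passed (log2 fold change 1.43, adjusted p = 0.0183). Of the windows of 75 bases in its own exon, 14.2% recurred elsewhere in the locus, mostly in PCDHA8, whose counts were 7, 9 and 5 in H295R and 9, 12 and 10 in H295R-PM-Ptc+.

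PCDHA1 (chr5:140786136-141012347), the first gene of the alpha cluster, had 1.46, 0.669 and 1.38 CPM in H295R and 3.25, 1.77 and 2.72 CPM in H295R-PM-Ptc+. The groups did not overlap, and each replicate was higher than its number in the other group, by 1.15, 1.4 and 0.985 on the log2 scale. The log2 fold change was 1.14 (SE 0.32, adjusted p = 0.0937 by edgeR), and the adjusted p was 0.000552 with the replicate block. Its share of the alpha counts was 3.88% ± 1.62 in H295R and 8.02% ± 3.08 in H295R-PM-Ptc+. The sum of the other alpha genes, without PCDHA1 and PCDHA6, was 25.3, 29.5 and 32.2 CPM against 23.9, 30.0 and 33.0 CPM.

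The other 9 tested alpha genes did not pass in either fit, with log2 fold changes from -0.29 for PCDHAC1 to 0.67 for PCDHA2. PCDHA11 and PCDHA12, the genes with the highest alpha levels, had log2 fold changes of -0.016 (SE 0.15, adjusted p = 0.976) and 0.021 (SE 0.23, adjusted p = 0.978) by edgeR. Of the C-type genes, PCDHAC1 had 3.77, 5.98 and 5.78 CPM in H295R and 3.56, 4.26 and 4.92 CPM in H295R-PM-Ptc+. Its groups overlapped, while its log2 ratio within replicates was below 0 in each, at -0.081, -0.49 and -0.23. PCDHAC2 had 2.76, 2.52 and 1.86 CPM against 2.5, 2.41 and 3.11 CPM, with a log2 fold change of 0.17, and its groups overlapped too.

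In the beta cluster, all 18 genes were tested and none passed without the block. Their log2 fold changes ran from -0.43 for PCDHB6 to 0.54 for PCDHB4, with a median of 0.032, and 10 were above 0 and 8 below. PCDHB6 (chr5:141150102-141153287) had 6.15, 5.12 and 5.54 CPM in H295R and 3.44, 5.07 and 3.97 CPM in H295R-PM-Ptc+. The lowest H295R library lay just above the highest H295R-PM-Ptc+ library, and the difference within replicate 2 was close to 0. Its log2 fold change was -0.43 (SE 0.17), with an adjusted p of 0.233 by edgeR and 0.0496 with the replicate block.

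PCDHB11 (chr5:141199775-141203045) had 8.58, 7.87 and 8.66 CPM in H295R and 5.87, 6.84 and 6.35 CPM in H295R-PM-Ptc+, without overlap. Its log2 fold change was -0.40 (SE 0.12), with an adjusted p of 0.109 by edgeR and 0.0170 with the replicate block. Between PCDHB6 and PCDHB11 lie PCDHB17, PCDHB7, PCDHB8, PCDHB16, PCDHB9 and PCDHB10, of which none passed in either fit. PCDHB8 had 10.3, 12.2 and 11.7 CPM against 9.27, 9.33 and 11.1 CPM, PCDHB10 had 10.7, 10.4 and 9.79 CPM against 8.96, 9.33 and 9.98 CPM, and the groups of both overlapped. PCDHB5, PCDHB14 and PCDHB2, the other beta genes among the 5 highest, had log2 fold changes of 0.21, 0.010 and 0.15.

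PCDHB12 passed as lower only when replicate 1 was left out of both groups, with a log2 fold change of -0.45 (adjusted p = 0.0401 by edgeR). It had 4.90, 8.03 and 8.41 CPM in H295R and 4.89, 5.83 and 6.26 CPM in H295R-PM-Ptc+, so that replicate 1 was equal in both groups and the other replicates were lower. With all libraries its log2 fold change was -0.33 (SE 0.21, adjusted p = 0.472 by edgeR).

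Of the gamma genes, 3 passed as higher with the replicate block, and 2 of them, PCDHGB5 and PCDHGA9, lie next to each other. PCDHGB5 (chr5:141397987-141512979) had 4.48, 5.87 and 5.38 CPM in H295R and 7.08, 8.17 and 9.98 CPM in H295R-PM-Ptc+, from 107 to 149 and 181 to 231 counts. Every library labelled H295R-PM-Ptc+ lay above every library labelled H295R, by 0.66, 0.48 and 0.89 on the log2 scale within replicates. The log2 fold change was 0.68 (SE 0.16), with an adjusted p of 0.0598 by edgeR and 0.000581 with the replicate block. PCDHGB5 made up 13.3% ± 1.57 of the gamma counts in H295R and 18.5% ± 1.68 in H295R-PM-Ptc+. Of its 75-base windows, 16.7% recurred in the locus, all of them in PCDHGB4, which had 0 to 5 counts per library.

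PCDHGA9 (chr5:141402932-141512979), the next gene after PCDHGB5, had 0.209, 0.551 and 0.445 CPM in H295R and 0.704, 1.49 and 1.43 CPM in H295R-PM-Ptc+, from 5, 14 and 11 and from 18, 37 and 33 counts. The groups did not overlap, and the log2 ratios within replicates were close to each other at 1.75, 1.43 and 1.68. The log2 fold change was 1.56 (SE 0.40), with an adjusted p of 0.0757 by edgeR and 0.000997 with the replicate block. Without H295R-PM-Ptc+ replicate 1 the adjusted p was 0.0366 by edgeR. With any other library left out alone it was 0.110 to 0.238, so that the call was not made. None of its 75-base windows recurred in the locus.

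PCDHGA2 (chr5:141338760-141512979) had 1.13, 0.866 and 1.25 CPM in H295R and 1.68, 2.45 and 1.38 CPM in H295R-PM-Ptc+. The groups did not overlap, but the log2 ratio within replicates ranged from 0.14 in replicate 3 to 1.5 in replicate 2. Its log2 fold change was 0.77 (SE 0.27), with an adjusted p of 0.176 by edgeR and 0.0407 with the replicate block. PCDHGA1 and PCDHGB1, nearby genes of the cluster, had log2 fold changes of 0.024 and 0.014.

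**Figure D4:**
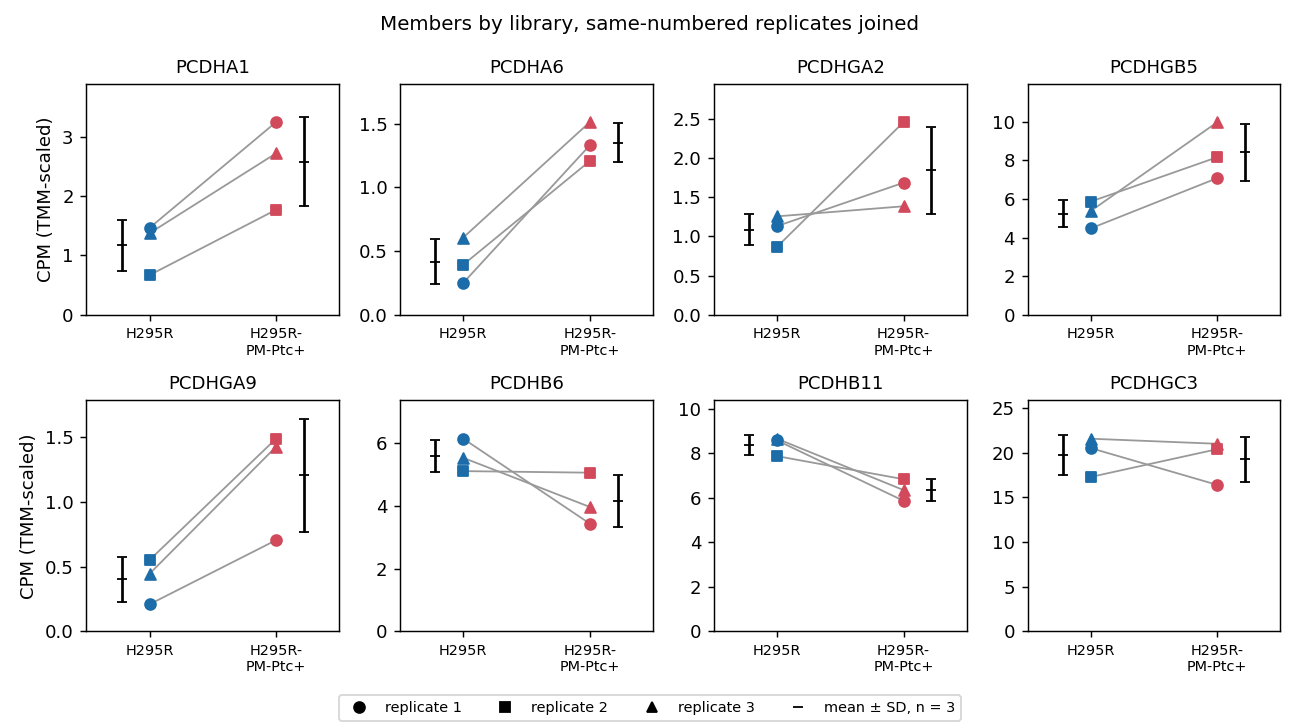
CPM (vertical axis, each panel from 0) of the 7 members that passed in at least 1 of the fits with and without the block, and of PCDHGC3, by label (H295R left, H295R-PM-Ptc+ right), with lines joining same-numbered replicates and black marks for the mean ± SD of 3 libraries. The lines rise in all replicates for PCDHA1, PCDHA6, PCDHGA2, PCDHGB5 and PCDHGA9 and fall in all for PCDHB6 and PCDHB11, while those of PCDHGC3 cross.

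PCDHGC3, which held most of the C-type counts, had a log2 fold change of -0.039 (SE 0.12, adjusted p = 0.920 by edgeR), and its log2 ratio within replicates was -0.32, 0.24 and -0.038. Its replicates thus lay on both sides of 0. The other 11 tested gamma genes had log2 fold changes from -0.16 for PCDHGA5 to 0.39 for PCDHGB6, and none passed in either fit. Of the highest gamma genes, PCDHGB2 had 1.51, 1.69 and 1.90 CPM in H295R and 1.76, 2.49 and 2.33 CPM in H295R-PM-Ptc+, for a log2 fold change of 0.37 (SE 0.20, adjusted p = 0.407 by edgeR), and PCDHGA4 had 0.670, 1.18 and 1.62 CPM against 1.13, 1.29 and 1.47 CPM with a log2 fold change of 0.16.

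The 12 members that did not pass the filter were PCDHA7, PCDHA8, PCDHA9, PCDHA10, PCDHA14, PCDHGA3, PCDHGA7, PCDHGB4, PCDHGA8, PCDHGA12, PCDHGC4 and PCDHGC5, with 0 to 13 counts per library. These genes were left untested, and PCDHA14 could not be counted at any depth.

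The members resemble each other in sequence, and the authors counted reads that fit several places at their primary alignment. Windows of 75 bases, the read length, that recurred elsewhere in the locus made up a median of 2.00% of the own exonic bases in the alpha cluster, 10.8% in beta and 2.94% in gamma. The highest share was 36.6%, in PCDHB8, mostly shared with PCDHB13, and PCDHB10 followed with 29.2%, mostly shared with PCDHB9. The split of counts between such genes is therefore uncertain.

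The number of members called depended on the tool. DESeq2 called 4 members higher (PCDHA1, PCDHA6, PCDHGB5 and PCDHGA9, adjusted p = 0.0249, 0.00329, 0.0110 and 0.0275), beside 5.45% of all genes called in either direction, and limma-voom called PCDHA6 alone (adjusted p = 0.0226), beside 3.64%. No filter on low counts gave the same 4 members with edgeR (adjusted p = 0.00491, 0.000738, 0.00686 and 0.00586), beside 3.59% of all genes with a count, and so did leaving out replicate 1 of both groups (adjusted p = 0.0474, 0.0183, 0.00881 and 0.00853), beside 12.3%.

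Genes that act on the clusters were read from the same fit, against 2.42% of all genes called higher and 1.32% lower, and 12.1% and 10.4% with the replicate block. None of 11 genes of cohesin, its regulators and CTCF, which shape the loops between protocadherin promoters and enhancers, passed without the block. RAD21, a cohesin subunit and the highest of them, had 792 ± 54.9 CPM in H295R and 705 ± 22.8 CPM in H295R-PM-Ptc+ (log2 fold change -0.17, adjusted p = 0.342 by edgeR), and SMC1A, another subunit, 240 ± 27.9 and 267 ± 40.6 CPM (log2 fold change 0.15, adjusted p = 0.621 by edgeR). With the replicate block RAD21 passed as lower (adjusted p = 0.0113) and SMC1A as higher (adjusted p = 0.0213). Of 12 chromatin and DNA methylation regulators, TRIM28, a corepressor that recruits the histone methyltransferase SETDB1, rose from 296 ± 30.5 to 418 ± 23.3 CPM (log2 fold change 0.49, SE 0.09, adjusted p = 0.0249 by edgeR). The other 11 did not pass without the block, while WIZ passed as higher with it (adjusted p = 0.0112) and DNMT1 did not. Levels of the maintenance methyltransferase DNMT1 were 229 ± 26.4 and 240 ± 32.2 CPM. The median log2 fold change was -0.0012 over the cohesin list and 0.044 over the regulators.

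Of 7 genes of the proteolytic processing of protocadherins, by the sheddase ADAM10 and the gamma-secretase complex, none passed without the block. ADAM10 had 141 ± 20.1 CPM in H295R and 156 ± 13.7 CPM in H295R-PM-Ptc+, a log2 fold change of 0.14 with an adjusted p of 0.606 by edgeR and 0.0340 with the replicate block, and PSEN2, a catalytic subunit of gamma-secretase, also passed as higher with the block (log2 fold change 0.24, adjusted p = 0.0167). The highest was APH1A, a gamma-secretase subunit, with 259 ± 22.1 and 257 ± 20.6 CPM. Of 16 signalling partners of their cytoplasmic domains, 15 were tested. FYN, a kinase of the Src family, fell from 26.5 ± 1.18 to 18.7 ± 1.45 CPM (log2 fold change -0.50, SE 0.09, adjusted p = 0.0189 by edgeR). The others did not pass without the block, including the highest, NCKAP1 of the WAVE actin regulatory complex (359 ± 58.2 and 344 ± 38.2 CPM) and the GTPase RAC1 (278 ± 3.70 and 279 ± 11.4 CPM). With the replicate block, 3 of the 15 passed as higher and 3 as lower, FYN included, beside 22.5% of all genes in either direction. These were WASF3, CYFIP1 and CYFIP2 as higher (log2 fold changes of 0.23, 0.14 and 0.39, adjusted p = 0.00338, 0.0388 and 0.000434) and ABI2 and BRK1 as lower (log2 fold changes of -0.38 and -0.29, adjusted p = 3.41e-05 and 0.000213). WASF1, WASF2 and ABI1, which belong to the same complex, did not pass (adjusted p = 0.812, 0.164 and 0.189 with the block).

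The genes around the clusters did not pass without the block. Of 73 other genes within 1000 kb of the locus, 35 were tested, none passed, and their median log2 fold change was 0.028. TAF7, which lies between the beta and gamma clusters and encodes a subunit of the general transcription factor TFIID, had 201 ± 9.71 CPM in H295R and 194 ± 11.2 CPM in H295R-PM-Ptc+ (log2 fold change -0.052, adjusted p = 0.809 by edgeR). DIAPH1, a formin gene downstream of the gamma cluster, had 275 ± 38 and 301 ± 38 CPM (log2 fold change 0.13, adjusted p = 0.671), and its adjusted p was 0.0288 with the replicate block, under which 3 of the 35 passed as higher and 1 as lower, beside 12.1% and 10.4% of all genes. NDFIP1, the highest of the list, had 306 ± 5.86 and 310 ± 15.6 CPM. TAF7 was named after its values were seen.

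Most markers of the adrenal cortex were detected. Of 10 such genes, 9 were tested, and CYP11B1, the enzyme of the last step of cortisol synthesis, had 2, 1 and 2 counts in H295R and 0, 1 and 3 in H295R-PM-Ptc+. HSD3B2, another steroid synthesis enzyme, had 16.6 ± 1.70 and 16.6 ± 3.82 CPM, and MC2R, the receptor of ACTH, 3.78 ± 0.451 and 3.59 ± 0.565 CPM. NR5A1, the transcription factor of steroidogenic cells, had 367 ± 40.8 CPM in H295R and 351 ± 10.5 CPM in H295R-PM-Ptc+. STAR, which brings cholesterol into mitochondria, had 298 ± 71.1 and 397 ± 103 CPM (log2 fold change 0.41, adjusted p = 0.346 by edgeR and 3.91e-06 with the replicate block). CYP21A2, a steroid hydroxylase with a near-identical pseudogene that could take part of its reads, rose from 12.8 ± 2.19 to 23.5 ± 1.43 CPM (log2 fold change 0.88, adjusted p = 0.00670 by edgeR) and SULT2A1, the sulfotransferase of adrenal androgens, from 70.2 ± 10.2 to 106 ± 10.7 CPM (log2 fold change 0.60, adjusted p = 0.0306 by edgeR). Others had values on the other side of 0. CYP11A1, the enzyme that cleaves the side chain of cholesterol, had 164 ± 28.3 and 138 ± 16.7 CPM (log2 fold change -0.25, adjusted p = 0.391 by edgeR and 0.00100 with the replicate block), and CYP17A1 and INHA, which passed in neither fit, had log2 fold changes of -0.12 and -0.41. The median over the 9 adrenal markers was -0.065. Of 9 markers of fibroblasts, endothelial cells and leukocytes, COL1A1 alone passed the filter, with 8.36 ± 0.835 and 9.65 ± 0.889 CPM, and LUM, PTPRC and CD68 were at 0 in every library. Of 8 neuronal markers, 5 were tested and STMN2 was at 0 in every library. SNAP25, a synaptic vesicle fusion protein, fell from 21.3 ± 0.605 to 14.5 ± 0.573 CPM (log2 fold change -0.55, adjusted p = 0.00852 by edgeR), and NEFL, a neurofilament, from 174 ± 7.60 to 137 ± 6.33 CPM (log2 fold change -0.34, adjusted p = 0.0417 by edgeR). The other tested neuronal markers, SYT1, MAP2 and GAP43, did not pass and had log2 fold changes of 0.031, 0.12 and 0.28, and the median over the list was 0.031. The summed level of the neuronal markers was 195 to 209 CPM in H295R and 150 to 164 CPM in H295R-PM-Ptc+, most of it from NEFL, and the part of neuronal genes in the differences of the protocadherins was not tested.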

How the data were processed

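RNA was sequenced from 6 libraries, in stranded libraries with paired reads of 75 bases. The authors mapped reads to hg38 with STAR 2.4.0a, assigned fragments to gene names with featureCounts and an Ensembl GRCh38 annotation (primary alignments, multiply mapped reads kept) and deposited raw counts, without normalization. The Subread version differs between the paper's methods and the submitters' processing notes (1.5.0-p3), and the kit is named as mRNA in the former and total RNA in the labels.

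The test was the two-sided quasi-likelihood F-test of edgeR 4.0.16 under R 4.3.3, after filterByExpr and TMM, with no term but the group and with Benjamini-Hochberg adjustment over 16710 genes. The members, the gene lists and the named genes (members past an adjusted p of 0.05 or past it only with the replicate block, the 5 highest per length in each cluster, the C-type genes, and of each list the genes past 0.05 and the 2 highest by CPM) were chosen with earlier results of these data known. CPM uses TMM-scaled library sizes. Own exonic bases are those that no other gene of the table holds on that strand. Libraries of the same number were taken as pairs, since the correlation across genes of their deviations from the means of their groups was 0.497, 0.307 and 0.228, against -0.352 to 0.150 between other numbers. The methods state no pairing, so the replicate block is an alternative. The others were DESeq2 1.42.0, limma-voom 3.58.1, RLE size factors, a test of every gene with a count, a minimum of 10 counts in all libraries, and fits that left out libraries. The scripts were tested on simulated data. No set test was made. Promoter windows were taken from RefSeq (GRCh38.p14) and 75-base windows from hg38. Of 54 members named in a later annotation of hg38, 44 shared an edge of the first exon with the table. Python 3.11.15 with pandas 2.3.3 and matplotlib 3.10.9 was used for tables and figures.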

Additional observations from a re-analysis of the deposited data

How the results depend on the processing

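The number of members called higher was 1 with edgeR and group alone, 4 with no filter on low counts, 4 with DESeq2, 0 with at least 10 counts in every library (where PCDHA6 and PCDHGA9 were not tested), 5 with the replicate block, 4 without replicate 1 in both groups and 0 to 1 with 1 library left out. The number called lower was 0, 2 with the replicate block, 1 without replicate 1 in both groups and 0 otherwise. The cause of the other moves was not tested. The direction held in every alternative for the 7 members called with or without the block. Without replicate 1 in both groups, the log2 fold change turned from -0.14 to 0.27 for PCDHB1, from -0.034 to 0.13 for PCDHGB7, and to 0.065 for PCDHA11, -0.14 for PCDHGA1, -0.027 for PCDHGA4 and 0.088 for PCDHGC3. With 1 library left out it ranged from -0.15 to 0.11 for PCDHA11, -0.15 to 0.21 for PCDHA12, -0.092 to 0.12 for PCDHB14, -0.15 to 0.22 for PCDHGA1, -0.11 to 0.46 for PCDHGA4 and -0.13 to 0.059 for PCDHGC3. These genes had log2 fold changes near 0 with all libraries. Over the 44 tested members, 491 of 563 values under alternatives kept direction and side of the threshold, 17 newly passed, 4 no longer passed and 51 turned in direction, the last in 20 members whose log2 fold change lay within 0.17 of 0. The log2 ratio of the cluster sums moved by less than the spread between replicates in every alternative, ranging over left-out libraries from 0.0080 to 0.20 for alpha, -0.073 to 0.068 for beta and 0.14 to 0.30 for gamma. Without a scaling factor the beta ratio was 0.0024. Per kb of all exons in place of own exons, PCDHB14 had the highest level in place of PCDHGC3, and 8 of the 10 highest members were shared with the order by own exons. The 12 untested members had too few counts for the filter, PCDHA14 because no exonic base was its own, and the exchange of group names was not resolved.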
